A study of Mus musculus with 52 samples.

Results

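The genes described here are 4 ligands (Dll1, Dll4, Jag1, Jag2), 3 receptors (Notch1, Notch2, Notch3) and 3 transcriptional targets (Hes1, Hey1, Nrarp) of the Notch pathway, 10 of the 24421 gene symbols counted in RNA sequencing of Cilia-APEX-IMCD3 cells, an immortalised mouse line from the inner medullary collecting duct of the kidney. They were chosen by name, apart from Dll4, which was also chosen because its counts had been lower in mutants of both culture states. Mutant clones were homozygous for a missense change in Wdr34 or Wdr60, the intermediate chains of the dynein-2 motor that returns cargo from the tip of the cilium, and each was grown from 1 cell after CRISPR base editing with the cytosine base editor BE4-Gam. Control clones, by the methods of the study, had been transfected with the same editor and a guide vector that carried no target oligo. The label of the non-ciliated control AB lacks the BE prefix of the other non-ciliated clones, and the labels do not explain this. In the ciliated state, the mutants were clones Wdr34-1, Wdr34-3 and Wdr60 and the controls were clones D8, H12, A4 and G7. In the non-ciliated state, the mutants were clones Wdr34 and Wdr60 and the controls were clones AB, 1, 2 and 3. The study made 2 Wdr34 alleles, and the labels do not say which of them Wdr34-1 and Wdr34-3 each carry. By the study, 1 of these alleles came with an unintended heterozygous missense change in Wdr34 and was absent from the non-ciliated cells. The Wdr60 clone had an unintended heterozygous synonymous change. Cilia were induced with reduced-serum medium according to the methods of the study, whereas the labels give 10% serum for all samples. The states were also sequenced at separate times, so that serum, ciliation and time of sequencing cannot be told apart. Clones are counted per state here. The study describes 4 control and 3 mutant clones, and the labels do not say which clones of the states are the same line. Clones of different states are treated as separate throughout.

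Notch signaling passes between touching cells. A Delta or Jagged ligand on one cell binds a Notch receptor on its neighbour, the receptor is cut by a metalloprotease and by gamma-secretase, and the freed intracellular domain enters the nucleus and joins RBPJ and a Mastermind protein to switch on targets such as Hes1, Hey1 and Nrarp. In the collecting duct the pathway is known for dividing cells between the principal fate, which follows Notch activity, and the intercalated fate.

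The 13 clones, counted per state, were each sequenced as 4 technical libraries, 52 in all, with 14816218 to 28084979 counted fragments per library. No 2 libraries of a clone held identical counts (0 of 78 pairs). Replicate 1 of control A4, replicate 4 of control G7, replicate 1 of control AB and replicate 1 of the non-ciliated Wdr60 mutant stood apart from the other libraries of their clones, and values without them are given where they change a call or a sign and beside Dll4 and Jag1. The libraries of the ciliated Wdr60 mutant fell into pairs, replicates 1 and 2 against replicates 3 and 4, with a chi-square per degree of freedom over genes of 45.4 to 104 between the pairs and of 16 and 7.28 within them. Wdr34, which the base edit alters but does not remove, was at 30.9 to 44.0 CPM (counts scaled to the library total) in ciliated controls and at 21.7 to 49.5 CPM in ciliated mutants, and Wdr60 was at 21.8 to 25.7 CPM and 20.4 to 22.0 CPM. In the non-ciliated state Wdr34 was at 22.2 to 31.9 CPM in controls and 27.9 to 32.3 CPM in mutants. Wdr60 was there at 20.4 to 25.6 CPM in controls and 26.2 to 30.8 CPM in mutants. Expression of collecting duct epithelium genes (11 markers, summed) was between 1094 and 5150 CPM over the clones. It was lowest in control 2 (1094 CPM) and control G7 (1797 CPM), where E-cadherin (Cdh1) was at 4.22 and 14.4 CPM against a median of 350 CPM over the 13 clones and Epcam was at 2.86 and 13.5 CPM against 348 CPM. Keratins Krt7, Krt8, Krt18 and Krt19 were also lowest in G7 and control 2 among the controls. The other way, Cdh16, Pax2, Pax8 and Hoxb7 were highest of all clones in G7 (841, 310, 419 and 83.4 CPM) and highest of the non-ciliated controls in control 2 (266, 277, 300 and 55.3 CPM). Clone Wdr34-3 (1986 CPM) came next, with Cdh1 at 301 CPM but the keratin Krt8 at 76.8 CPM against a median of 579 CPM. Among 7 markers of mature principal cells, Aqp2 had at most 1 count in any library, while the sodium channel subunit Scnn1a was at up to 5.46 CPM (median over clones 2.10 CPM), Scnn1g at up to 1.35 CPM and Aqp3 at up to 1.06 CPM. Among 6 markers of intercalated cells, Foxi1 had 0 counts in any library and Slc26a4 was at up to 2.25 CPM. Of 8 endothelial markers, Egfl7 alone passed 1 CPM, and Pecam1, Cdh5 and Kdr had at most 7, 5 and 3 counts. The sum of 6 fibroblast and mural markers was 31.4 CPM in clone Wdr34-3 and 1.39 to 7.38 CPM in the others. Decorin (Dcn), a matrix proteoglycan, made up 29.2 CPM of it, against a median of 0.055 CPM over the clones, while Col1a1 was at 1.17 CPM in Wdr34-3. The sum of 4 leukocyte markers was 0.860 to 5.46 CPM over the clones.

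The upstream windows of Dll4 and Notch3 are shown because these 2 genes had the widest range over the clones, although no measurement here bears on the windows themselves. They are the 250 bases before a transcript start (for Notch3 one that lies a few bases inside the outer bound of the gene), 5′ to 3′ on the gene's strand, from RefSeq (GRCm38.p6), with CG dinucleotides in capitals: 14 in Dll4 and 17 in Notch3, against a median of 6 over 32851 promoter windows.
Dll4 (chr2:119325534-119325783, plus strand): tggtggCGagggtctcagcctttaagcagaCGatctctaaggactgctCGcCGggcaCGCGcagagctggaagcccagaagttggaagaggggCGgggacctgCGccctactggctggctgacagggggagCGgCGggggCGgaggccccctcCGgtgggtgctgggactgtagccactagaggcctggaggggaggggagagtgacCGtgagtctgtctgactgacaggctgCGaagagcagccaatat
Notch3 (chr17:32166891-32167140, minus strand): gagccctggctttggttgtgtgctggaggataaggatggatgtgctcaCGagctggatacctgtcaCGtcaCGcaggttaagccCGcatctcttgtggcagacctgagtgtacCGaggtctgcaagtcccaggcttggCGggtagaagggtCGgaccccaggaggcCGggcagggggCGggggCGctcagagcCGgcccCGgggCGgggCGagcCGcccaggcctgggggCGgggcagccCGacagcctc
The table held windows for 8 of the 10 genes (9 windows, since Dll1 has a pair of start sites), with 13 to 54 CG dinucleotides each. Hes1 and Hey1 had none, so Nrarp was the only target among them. The RBPJ-type motif GTGGGAA, searched on both strands, occurred in 0 of these 9 windows and in 5.42% of all windows, and its core TGGGAA, which lies within it, in 0 of 9 and in 21.6%. The genes lie on 5 chromosomes: Nrarp (25180758 to 25183339), Notch1 (26457902 to 26503822), Dll4 (119325784 to 119335666) and Jag1 (137081451 to 137116520) on chromosome 2, Hey1 (8663359 to 8667038) and Notch2 (98013538 to 98150367) on chromosome 3, Jag2 (112907803 to 112929812) on chromosome 12, Hes1 (30065357 to 30067796) on chromosome 16, and Dll1 (15367354 to 15376932) and Notch3 (32120820 to 32166896) on chromosome 17. The first 411 bases of Dll4 overlap the antisense transcript Gm14207, which had 0 to 14 counts per library (median 3). Notch3 overlaps the antisense transcript Gm17276 over 21024 bases and Nrarp overlaps the antisense transcript Gm38287 over 2559 bases in GENCODE M21, neither of which was analysed here. On the opposite strand, Dll1 overlaps A930024N18Rik over 1873 bases, which was not analysed here either. Notch1 overlaps 0610009E02Rik over 1488 bases and Gm13568 over 414 bases, also not analysed. Whether the counting used strand is not given in the sources used here. The counts of all these genes may therefore hold antisense reads.

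All 10 genes passed the filter on low counts in every comparison. Per kilobase of exon, Hes1 was the most abundant member in both states, with a median over clones of 27.7 CPM per kb in the 7 ciliated clones and 66.3 CPM per kb in the 6 non-ciliated clones. Jag1 (17.8 and 25.4 CPM per kb) and Notch2 (16.9 and 11.8 CPM per kb) followed. Jag1 was thus the main ligand and Notch2 the main receptor of these cells by transcript level. Dll4 (0.19 and 0.17 CPM per kb), Dll1 (0.41 and 0.17 CPM per kb) and Hey1 (0.18 and 0.24 CPM per kb) were the 3 lowest in each state. The ranges of Jag1 and Notch2 over the clones overlapped, as did those of Dll1, Dll4 and Hey1.

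**Figure D1:**
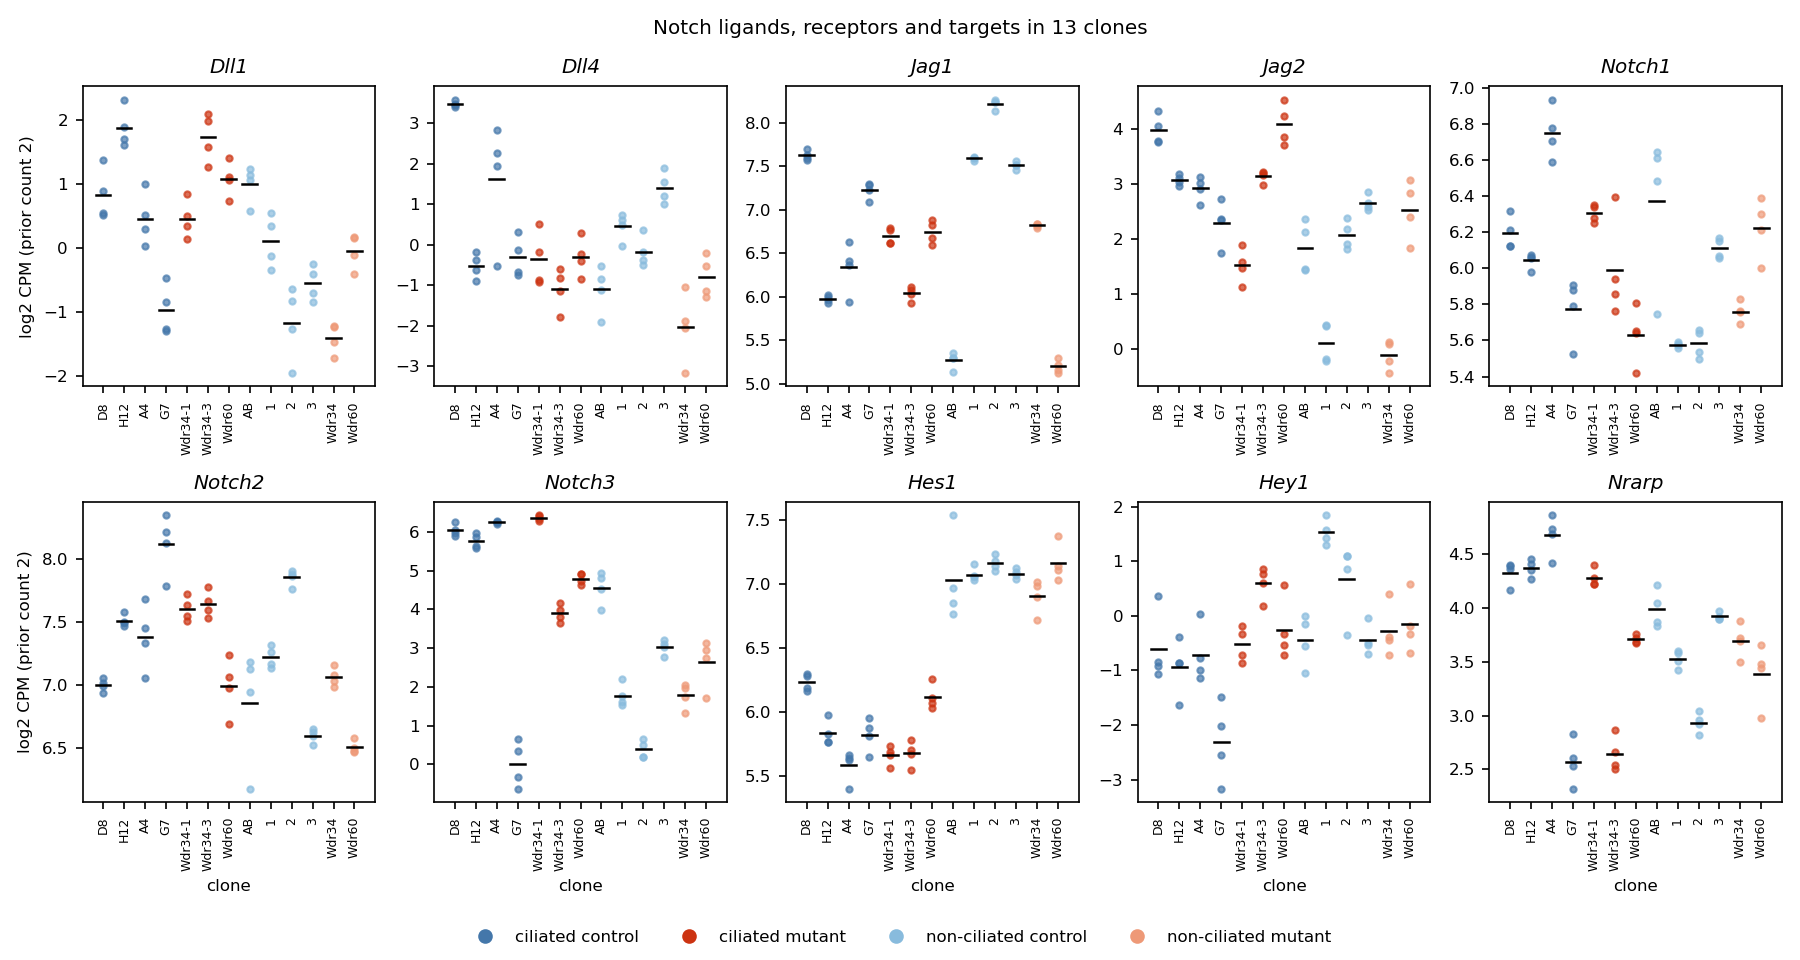
Level of each of the 10 genes in each library (points, log2 CPM with a prior count of 2) with the mean of the 4 libraries of each clone (bars), by state and genotype on separate vertical axes. Clones of 1 group differed widely in Dll4, Jag1, Jag2 and Notch3, while Hes1 separated the 7 ciliated clones (47.9 to 75.1 CPM) from the 6 non-ciliated clones (120 to 144 CPM).

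Dll4, a Delta ligand known best for its role in sprouting vessels, was high in few clones. In ciliated control D8 the 4 libraries held 11.8, 10.8, 10.4 and 10.9 CPM (170 to 180 counts). Control A4 held 0.587, 4.67, 6.93 and 3.69 CPM, the lowest being replicate 1, which stood apart from its clone across all genes. Controls H12 (0.420, 0.657, 0.537 and 0.762 CPM) and G7 (0.794, 1.13, 0.487 and 0.513 CPM) lay far below both. The ciliated mutants were as low as these last controls. Clone Wdr34-1 had 0.775, 1.31, 0.416 and 0.438 CPM, clone Wdr34-3 had 0.177, 0.342, 0.542 and 0.457 CPM, and clone Wdr60 had 0.638, 0.442, 0.735 and 1.11 CPM. The clone means of the groups overlapped: 2 of 4 controls lay above the highest mutant and 2 lay within the range of the mutants. The mean over clones was 4.06 ± 4.85 CPM in controls (SD, n = 4 clones) and 0.615 ± 0.204 CPM in mutants (SD, n = 3 clones), 6.60-fold apart, and the medians were 2.35 and 0.733 CPM. In bulk RNA a lower share of expressing cells and less RNA per cell cannot be told apart.

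Controls also differed in the non-ciliated state, where the highest was 6.83-fold above the lowest, against 18.4-fold in the ciliated state. Control 3 had 3.61, 2.80, 2.16 and 1.88 CPM, control 1 had 1.28, 1.41, 0.863 and 1.56 CPM, control 2 had 1.16, 0.655, 0.593 and 0.765 CPM, and control AB had 0.444, 0.155, 0.346 and 0.585 CPM. Mutant Wdr34 had 0.127, 0.157, 0 and 0.375 CPM (0 to 6 counts), and mutant Wdr60 had 0.578, 0.340, 0.295 and 0.756 CPM. Here 3 of 4 controls lay above both mutants, and control AB lay between them. The means over clones were 1.27 ± 0.969 CPM (SD, n = 4 clones) and 0.329 ± 0.232 CPM (SD, n = 2 clones).

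**Figure D2:**
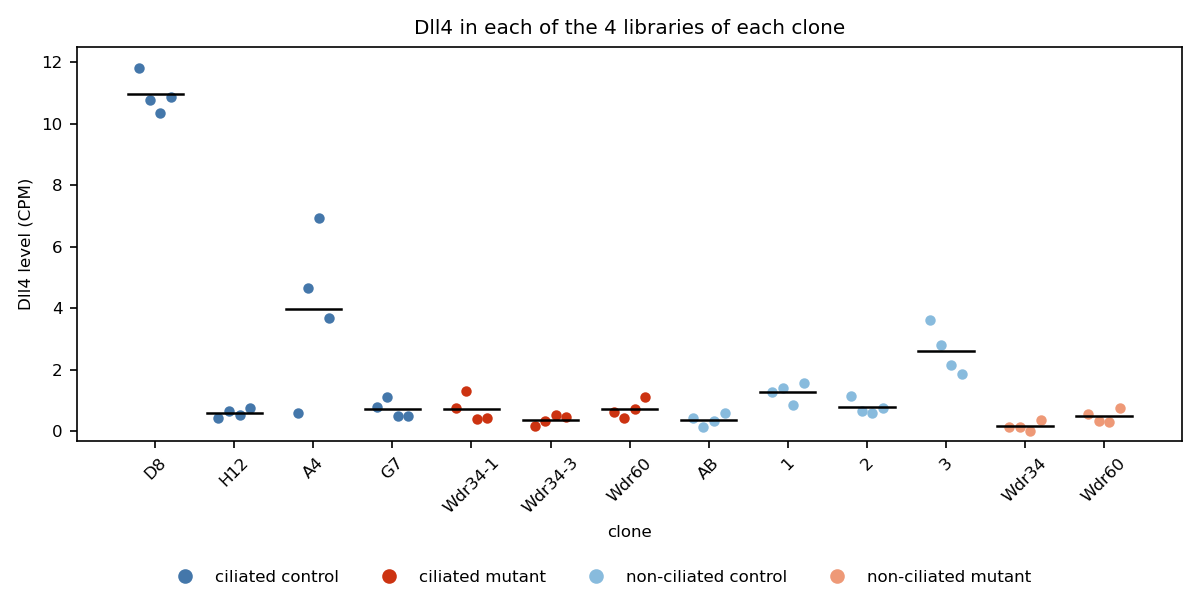
Dll4 level in CPM (linear axis) in each of the 4 libraries (points) of the 13 clones, with clone means (bars). The high controls were D8 and A4 in the ciliated state and clone 3 in the non-ciliated state; controls H12, G7 and AB sat among the mutants.

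Fitted over libraries, Dll4 was lower by a log2 fold change of -2.70 in ciliated mutants and of -1.93 in non-ciliated mutants. Because this direction was part of the choice of the gene, no test is given for either. Without controls D8 and A4 the ciliated value was -0.11, and without the 4 libraries that stood apart the values were -2.87 and -2.14. The mutant effect in the ciliated state minus that in the non-ciliated state was -0.78 (SE 0.82), also given with no test. By single clones, the value was -2.45 for Wdr34-1, -3.39 for Wdr34-3 and -2.45 for ciliated Wdr60, and -2.88 for Wdr34 and -1.36 for Wdr60 in the non-ciliated state.

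Jag1, the Jagged ligand that was the most abundant ligand per length, fell in non-ciliated mutants. Clone means were 113 ± 1.81 CPM in mutant Wdr34 and 36.6 ± 1.88 CPM in mutant Wdr60 (SD, n = 4 libraries each). The controls stood at 38.4 ± 2.52 CPM (AB), 193 ± 2.55 CPM (1), 299 ± 11.4 CPM (2) and 183 ± 5.48 CPM (3). Control AB was thus at the level of the Wdr60 mutant, and the groups overlapped. The fit over libraries gave a log2 fold change of -1.25 (SE 0.41, edgeR adjusted p = 0.0421), and the exact permutation test over clones gave p = 0.333 (2-sided, adjusted p = 1), where 2 against 4 clones cannot give a p below 0.0667. Without the 4 libraries that stood apart the value was -1.23 (adjusted p = 0.0273). The call was lost without control 1 (adjusted p = 0.0788), control 2 (0.143), control 3 (0.0911) or mutant Wdr60 (0.411), without any 1 of the replicates 1 to 4 of every clone (0.0668 to 0.147) and with the replicate block (0.0686), and over all alternatives the adjusted p ran from 0.000184 to 0.976. Over all genes, the fits without replicate 2, 3 or 4 called 17 or 18 higher and 143 to 157 lower, against 59 and 309 in the main fit. The fit without replicate 1 called 70 and 287, and the replicate block 52 and 272. The Jag1 log2 fold change was -0.65 without mutant Wdr60 and -2.29 without mutant Wdr34. In ciliated mutants the 3 clone means (65.7 to 108 CPM) lay within those of the controls (62.8 to 198 CPM), at a log2 ratio of -0.42 (SE 0.21, edgeR adjusted p = 0.266).

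Jag2, the other Jagged ligand, did not pass the test between mutants and controls of either state (log2 fold change 0.07, SE 0.32, edgeR adjusted p = 0.934 in ciliated clones, and -0.15, SE 0.47, adjusted p = 0.865 in non-ciliated clones). These averages hid mutants at opposite ends. Ciliated mutant Wdr34-1 was the lowest of its state at 2.81 ± 0.632 CPM and mutant Wdr60 the highest at 17.4 ± 4.57 CPM (13.1 and 14.5 CPM in replicates 1 and 2, 23.2 and 18.8 CPM in replicates 3 and 4), with mutant Wdr34-3 (8.75 CPM) between the controls G7 (4.95), A4 (7.55), H12 (8.37) and D8 (16 CPM). In the non-ciliated state mutant Wdr34 was lowest at 0.826 ± 0.166 CPM, near control 1 (0.996 CPM), and mutant Wdr60 (5.99 CPM) lay by control 3 (6.24 CPM). Dll1, a Delta ligand, was low in all clones, from 0.269 CPM (3 to 6 counts) in non-ciliated mutant Wdr34 to 3.62 CPM in ciliated control H12, and passed the edgeR test between mutants and controls of neither state (log2 fold change 0.31 and -0.74, edgeR adjusted p = 0.689 and 0.239).

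The receptors Notch1 and Notch2, the main Notch receptors of epithelia, were the steadiest members beside Hes1. Notch1 ranged 2.27-fold over the 13 clones (47.6 to 108 CPM) and Notch2 ranged 3.09-fold (91.0 to 281 CPM). Neither passed the test in ciliated mutants (log2 fold change -0.24, adjusted p = 0.345, and -0.13, adjusted p = 0.682, edgeR) or in non-ciliated mutants (0.05, adjusted p = 0.868, and -0.41, adjusted p = 0.161).

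Notch3, a receptor best known from smooth muscle of arteries, had the widest range of the 10 genes, 85.8-fold. In ciliated controls it was at 66.1 ± 7.09 CPM (D8), 54.7 ± 6.78 CPM (H12) and 76.2 ± 1.58 CPM (A4), but at 0.961 ± 0.427 CPM in G7 (9 to 24 counts). Ciliated mutants held 82.4 ± 3.86 CPM (Wdr34-1), 14.9 ± 2.29 CPM (Wdr34-3) and 27.8 ± 2.65 CPM (Wdr60). In the non-ciliated state control AB was highest at 24.2 ± 6.55 CPM and control 2 lowest at 1.21 ± 0.207 CPM, with mutants Wdr34 and Wdr60 at 3.39 and 6.52 CPM. The lowest clone of each state was thus the control with the least Cdh1 and Epcam and the most Pax2 and Pax8 of its state's controls, and the part of that shift in the Notch3 level was not tested. Mutants did not pass the test against controls (log2 fold change -0.25, SE 0.56, edgeR adjusted p = 0.855 in ciliated clones, and -0.90, SE 0.58, adjusted p = 0.301 in non-ciliated clones), and the sign of both changed when single clones were left out.

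Nrarp, a feedback inhibitor that is a direct target of the receptors' intracellular domain, had an order over the clones like that of Notch3. It was lowest in control G7 (5.89 ± 0.878 CPM) and mutant Wdr34-3 (6.16 ± 0.737 CPM) among ciliated clones and in control 2 (7.55 ± 0.491 CPM) among non-ciliated ones. It was highest in ciliated control A4 (25.5 ± 3.17 CPM). Across clone means on the log2 scale Pearson's r of Notch3 and Nrarp was 0.87 over 7 ciliated clones (Spearman's rho 0.75) and 0.85 over 6 non-ciliated clones (rho 0.83), the highest and second highest of 45 member pairs. Leaving out the clones farthest from the median Notch3 level gave 0.87 without G7 and Wdr34-3 and 0.35 without controls 2 and AB. This pair was singled out after its values were seen, and its points share library, depth and normalisation. Mutants and controls overlapped, with log2 fold changes of -0.50 (SE 0.27, edgeR adjusted p = 0.330) and -0.09 (SE 0.16, adjusted p = 0.752).

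**Figure D3:**
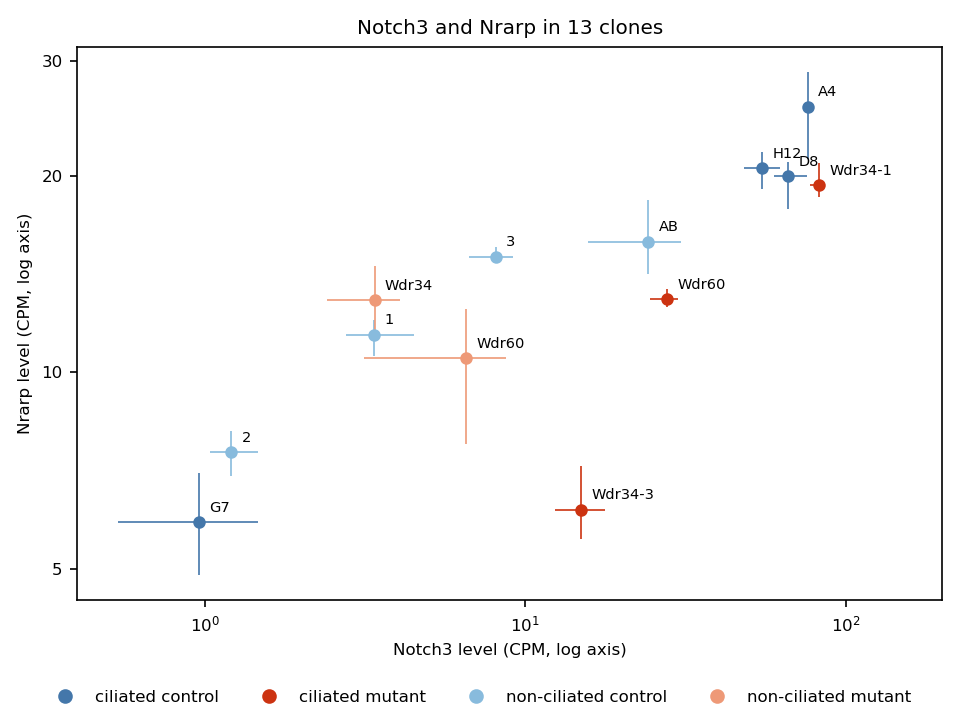
Mean level of Notch3 (horizontal, CPM, log axis) and Nrarp (vertical, CPM, log axis) in each of the 13 clones, with lines from the lowest to the highest of the 4 libraries. Controls G7 and 2 sit at the lower left (Notch3 at 0.961 and 1.21 CPM), controls D8, H12 and A4 and mutant Wdr34-1 at the upper right.

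Hes1, the repressor that is the standard readout of Notch activity, did not pass the test in mutants of either state. Ciliated mutants held 50.5 ± 2.55, 51.0 ± 3.45 and 69.3 ± 4.93 CPM and ciliated controls 47.9 to 75.1 CPM (log2 fold change -0.06, SE 0.10, edgeR adjusted p = 0.775). Non-ciliated mutants held 120 and 144 CPM and controls 134 to 144 CPM (-0.05, SE 0.08, adjusted p = 0.694).

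Hey1, a related repressor, was near the limit of detection. Its clone means were 0.598 CPM (8 to 13 counts), 1.43 CPM (18 to 37 counts) and 0.780 CPM (9 to 26 counts) in ciliated mutants Wdr34-1, Wdr34-3 and Wdr60. Ciliated controls held 0.602 (D8), 0.436 (H12), 0.530 (A4) and 0.110 CPM (G7, 0 to 4 counts). On the log2 scale all mutant means lay above all control means, as for 1 of 10 members and 1.11% of all genes tested, but the arithmetic means of Wdr34-1 and D8 overlapped. The log2 fold change was 1.15 (SE 0.35, edgeR adjusted p = 0.0639), DESeq2 called it at 1.17 (adjusted p = 0.0221), and the exact permutation p over clones was 0.0571 (2-sided, adjusted p = 1). EdgeR called the gene as well without mutant Wdr34-1, and without controls D8 and A4. In the non-ciliated state the mutants (0.746 and 0.837 CPM) lay among the controls (0.634 to 2.81 CPM), at a log2 ratio of -0.84 (SE 0.39, adjusted p = 0.151), and without control AB the gene was called lower (-1.08, adjusted p = 0.0354).

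The interaction of genotype and state, tested over all 52 libraries, passed for Hey1 alone of the 9 genes other than Dll4, at 2.0 (SE 0.55, edgeR adjusted p = 0.0398), and 1.12% of all genes passed in this direction and 0.0638% in the other. Hey1 rested on few counts and on single clones. The call was lost without ciliated mutant Wdr34-3 (1.56, adjusted p = 0.178), non-ciliated mutant Wdr34 (1.92, adjusted p = 0.157), non-ciliated mutant Wdr60 (2.08, adjusted p = 0.0763), control 1 (1.44, adjusted p = 0.118) or control 2 (1.94, adjusted p = 0.0948). It was also lost without replicate 2 (adjusted p = 0.270), replicate 3 (0.403) or replicate 4 (0.197) of every clone. Over all genes, these fits called 7, 18 and 22 higher and 0 lower, against 141 and 8 in the main fit. The Hey1 value ran from 1.44 to 2.35 over all alternatives. With the libraries of each clone summed it was 2.03 with adjusted p = 1.0, in a fit that called 0 of 13994 genes.

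Counted over the 9 members other than Dll4, edgeR called 0 higher and 0 lower in ciliated mutants, where 0.418% of all genes tested were called higher and 0.226% lower. Of the 9, 1 had an unadjusted p under 0.05, against 19.2% of genes, and DESeq2 called 1 (Hey1), where it called 177 of 17930 genes higher and 120 lower. Clone means of 0 members lay all below, against 0.828% of genes. In non-ciliated mutants it called 0 higher and 1 lower (Jag1), where 0.491% were called higher and 2.57% lower, and 3 were at an unadjusted p under 0.05, against 30.3% of genes. The clone means of no member lay all above or all below there, against 6.95% and 5.95% of genes. The median log2 fold change of the 9 was -0.13 in ciliated and -0.41 in non-ciliated mutants, beside -0.01 and 0.00 over all genes tested. Dll4 is left out of these counts because its direction in mutants was part of its choice. Over clones, the exact 2-sided permutation p of the members other than Dll4 and Hey1 was 0.514 to 0.943 in ciliated mutants, and that of the members other than Dll4 was 0.333 to 1 in non-ciliated mutants (adjusted p = 1 for each).

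**Figure D4:**
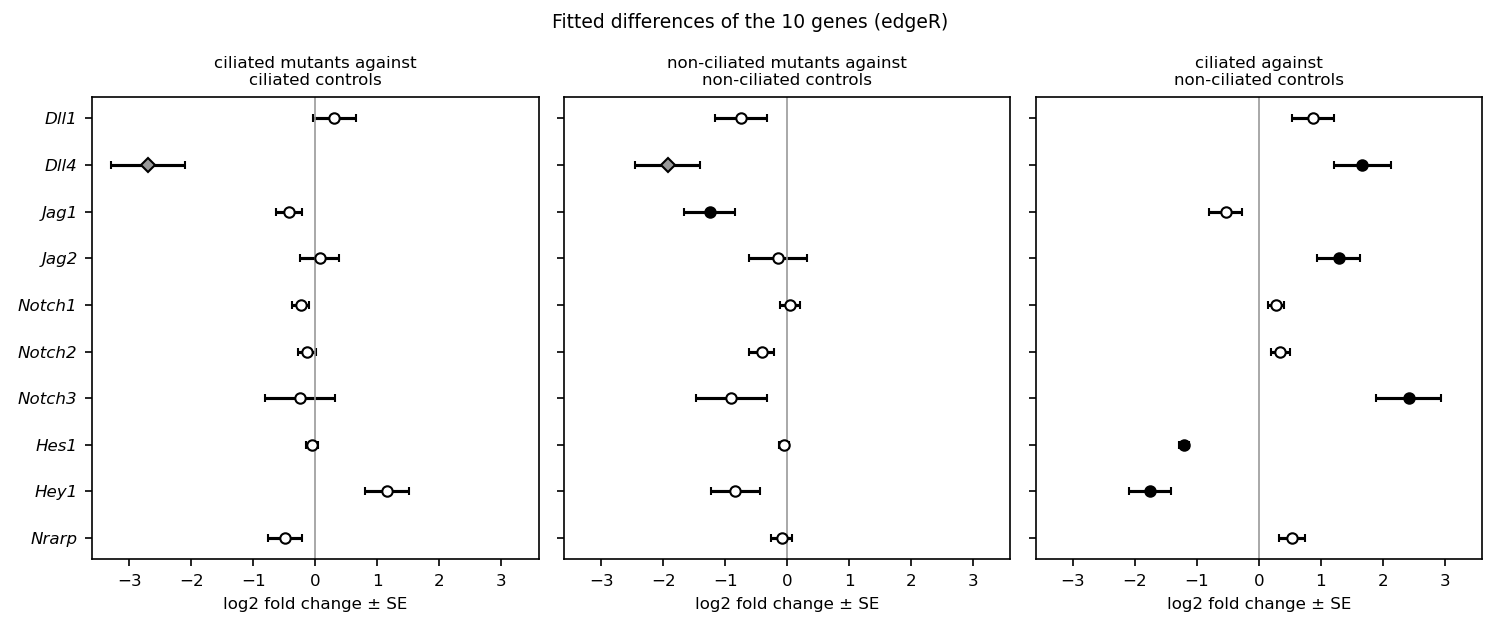
Log2 fold changes with standard errors of the 10 genes in the mutant comparisons of each state and between ciliated and non-ciliated controls. Filled circles passed the test (adjusted p under 0.05 and an absolute log2 fold change of at least 1), open circles did not, and grey diamonds mark Dll4 where its direction was part of its choice. Jag1 was filled in non-ciliated mutants (-1.25), and Dll4, Jag2, Notch3, Hes1 and Hey1 in the comparison of controls. Dll4 is not counted there as a call in the text, since its control values entered its choice.

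Each single mutant clone was also set against the controls of its state, counted over the members other than Dll4. These tests compare the 4 libraries of 1 clone with controls, so that genotype and clone cannot be told apart. Ciliated Wdr34-1 gave Jag2 lower (-1.71, SE 0.39, edgeR adjusted p = 0.0205), where 0.218% of genes were called higher and 0.46% lower. Ciliated Wdr34-3 gave Nrarp lower (-1.56, SE 0.42, adjusted p = 0.0114) and Hey1 higher (1.75, SE 0.49, adjusted p = 0.0149), against 3.64% higher and 2.16% lower. This was the clone with Dcn at 29.2 CPM, whose part in these values was not tested. In ciliated Wdr60 edgeR called 0 members at 0.642% and 1.29% of genes, with 3 members at an unadjusted p under 0.05 against 21.9% of genes, and DESeq2 called 0. Without control G7, the clone with almost no Cdh1, Epcam or Krt7, Notch3 became a call lower in ciliated Wdr60 (-1.24, adjusted p = 1.18e-05, from -0.84 and 0.642) and in Wdr34-3 (-2.14, adjusted p = 4.93e-09, from -1.74 and 0.230), and without control D8, Jag2 became a call higher in Wdr60 (1.31, adjusted p = 0.00176, from 0.92 and 0.0931). In Wdr34-3, Dll1 and Jag1 became calls without control H12, and Jag1 without control A4. Non-ciliated Wdr34 gave Jag2 lower (-2.18, SE 0.56, adjusted p = 0.0174), against 0.275% and 1.97% of genes, and Dll1 was called there as well by DESeq2, without the 4 libraries that stood apart, and without control 2. Non-ciliated Wdr60 gave Jag1 lower (-2.29, SE 0.57, adjusted p = 0.012), against 0.986% and 2.43%. The calls were not stable to leaving out 1 replicate number of every clone, in fits that mostly called fewer genes in all. Wdr34-1 then called 3 to 8 genes higher and 10 to 16 lower, from 27 and 57. Wdr34-3 called 366 to 389 and 120 to 144, from 457 and 271. Without replicate 2, 3 or 4, non-ciliated Wdr34 called 13 to 19 and 62 to 78, from 34 and 243. Non-ciliated Wdr60 then called 52 to 58 and 109 to 123, from 122 and 300. Wdr34-3 thus kept most of its higher calls, and whether the losses were particular to the members was not tested. Jag2 in Wdr34-1 was lost without any 1 of the 4 replicate numbers (adjusted p = 0.0573 to 0.186) and with the replicate block (0.0554). Nrarp in Wdr34-3 was lost without replicate 1 or 3 (0.0528 and 0.0579) and Hey1 without replicate 2, 3 or 4 (0.0536 to 0.119). Jag2 in non-ciliated Wdr34 (0.0704 to 0.0995) and Jag1 in non-ciliated Wdr60 (0.0654 to 0.0736) were lost without replicate 2, 3 or 4. VoomLmFit with the clone as a block called 241 genes higher and 10 lower in Wdr34-3, where Nrarp and Hey1 were lost. In the other single clones it called at most 14 genes higher and 5 lower, and 0 members. With the libraries of each clone summed, none of these single-clone calls remained, but the fits of 1 clone against 4 then called 0 of all 13856 to 14124 genes tested in each of the 5 comparisons, so that the loss says nothing about the members.

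More members were called between culture states than between mutants and controls. In ciliated against non-ciliated controls 2 of the 9 members other than Dll4 were higher and 2 lower, where 7.3% and 4.89% of all genes tested were called in these directions. Hes1 fell, from 134, 135, 144 and 135 CPM in controls AB, 1, 2 and 3 to 75.1, 57.0, 47.9 and 56.5 CPM in D8, H12, A4 and G7. The groups did not overlap, at -1.21 on the log2 scale (SE 0.08, edgeR adjusted p = 3.13e-18). The exact permutation test over clones gave p = 0.0286, the smallest that 4 against 4 clones allow, with an adjusted p of 0.126. The lowest non-ciliated clone of either genotype, mutant Wdr34 at 120 CPM, lay above the highest ciliated clone, control D8 at 75.1 CPM. Hey1 fell too (-1.76, SE 0.34, adjusted p = 1.30e-05, permutation p = 0.0286, adjusted 0.126), and these were the 2 members whose control means lay all below, as for 12.2% of genes, while 0 lay all above, against 10.5%.

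Jag2 (1.29, SE 0.35, edgeR adjusted p = 0.00127) and Notch3 (2.42, SE 0.52, adjusted p = 8.40e-05) were higher in ciliated controls over libraries, with overlapping clone means. Over clones, the exact permutation p was 0.0571 for Jag2 (adjusted 0.182) and 0.314 for Notch3 (adjusted 0.503). Dll4 was at 1.67 (SE 0.46), also with overlapping clone means. It is given with no test because the same control values entered its choice. Without control D8 the Dll4 value was 0.47. Jag2 fell under the fold limit without D8 (0.89) or control 1 (0.97). The call of Notch3 held without any single clone, although G7 lay under every non-ciliated control. Without the 4 libraries that stood apart Dll1 was called as well (1.10, adjusted p = 0.00547). Dll1 (0.87, adjusted p = 0.0215), Nrarp (0.53, adjusted p = 0.0256) and Notch2 (0.35, adjusted p = 0.0432) passed the adjusted p but not the fold limit. Their exact permutation p over clones was 0.4, 0.457 and 0.343 (adjusted 0.586, 0.634 and 0.531). With the libraries of each clone summed, Hes1 alone of the 10 genes was called (adjusted p = 0.00145), where 514 of 13994 genes were called higher and 357 lower. VoomLmFit with the clone as a block called 567 of 12544 genes higher and 465 lower. It called Hes1 (-1.23, adjusted p = 1.50e-07) and Jag2 (1.40, adjusted p = 0.0277), and the calls of Hey1 (adjusted p = 0.0782) and Notch3 (0.112) were lost.

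Of 56 further pathway genes, 45 were tested in ciliated mutants and 0 were called by edgeR, with 9 at an unadjusted p under 0.05 against 19.2% of all genes tested. In non-ciliated mutants 1 of 45 was called, with 13 at an unadjusted p under 0.05 against 30.3% of all genes. This was Tle2, a Groucho-type corepressor that acts with HES proteins. It was at 3.48 ± 0.626 and 7.42 ± 1.26 CPM in mutants Wdr34 and Wdr60 and at 4.82 to 23.9 CPM in controls (log2 fold change -1.13, SE 0.35, edgeR adjusted p = 0.0317), with overlapping clones. The median over the list was 0.02 and 0.01, beside -0.01 and 0.00 over all genes. The interaction called 0 of 46, with 6 at an unadjusted p under 0.05 against 14.4% of all genes. Between controls of the states 9 of 46 were called, 5 higher and 4 lower, where 7.3% and 4.89% of all genes were (34 were at an unadjusted p under 0.05, against 65.4%), and they are named here after their values were seen. Higher in ciliated controls were the ubiquitin ligase Neurl1b (1.67), which acts on ligand endocytosis, the gamma-secretase subunit Aph1c (1.04), which has a near-identical copy in Aph1b, the coactivator Maml3 (1.32), Tle2 (1.18) and Dtx3 (1.05). Lower were the ligand-like Dlk2 (-2.58), the acetyltransferase Kat2a (-1.02) and the helix-loop-helix inhibitors Id1 (-2.01) and Id3 (-1.64), which also respond to BMP signaling. In single clones, 1 of 46 was called in ciliated Wdr34-3, where 3.64% of genes were called higher and 2.16% lower, namely Hey2, a relative of Hey1 (1.95, SE 0.59, edgeR adjusted p = 0.0226), in the clone with Dcn at 29.2 CPM. At an unadjusted p under 0.05 were 16 of 46 there and 17 of 46 in non-ciliated Wdr34, against 33.3% and 28.9% of genes. In non-ciliated Wdr34, where 0.275% were called higher and 1.97% lower, 3 of 46 were called: Hey2 higher (1.73, SE 0.35, adjusted p = 0.00397), and Neurl1b (-1.03, SE 0.28, adjusted p = 0.0218) and Tle2 (-1.76, SE 0.49, adjusted p = 0.0261) lower. The other 3 clones called 0, with 9 of 46, 8 of 45 and 12 of 45 at an unadjusted p under 0.05 in Wdr34-1, ciliated Wdr60 and non-ciliated Wdr60, against 16.4%, 21.9% and 28.5% of all genes.

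The 5 genes whose levels over the 13 clones were most like those of Dll4, after centring each state, were Ceacam1 (Pearson's r 0.94), Plekhm1 (0.92), Tnks2 (0.92), Il11 (0.91) and Tmem252 (0.91) among 12544 genes, with Spearman's rho of 0.67 to 0.87. Without D8 and control 3, the clones with the most Dll4 relative to their state, r was 0.78 to 0.86. Ceacam1 (0 to 2.08 CPM) was as low as Dll4, whereas Tnks2 ran from 539 to 1392 CPM.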

How the data were processed

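RNA sequencing counts of 10 Notch genes were compared over 52 libraries of 13 IMCD3 clones. The authors deposited raw gene counts per library, made by mapping reads to GRCm38/mm10 with Rsubread and counting them with featureCounts in R 3.4.4 per the methods and labels; the strand setting and the treatment of reads that map to several places are not given in the sources used here. Groups were taken from the labels. The main test was edgeR 4.0.16 (R 4.3.3), the quasi-likelihood test on libraries with TMM normalisation, the filterByExpr filter and Benjamini-Hochberg adjustment over all genes tested; a gene was called at an adjusted p under 0.05 and an absolute log2 fold change of at least 1. Comparisons were mutants against controls within each state, their interaction, ciliated against non-ciliated controls, and each mutant clone against the controls of its state. Because the 4 libraries of a clone are technical replicates, p-values over libraries treat them as independent and are too small for a statement on clones. For members in the comparisons of groups, an exact 2-sided permutation test on clone means of log2 CPM (prior count 2) was therefore given beside the main p-values. It is not given for the interaction, for Dll4 or for genes other than the members. Between control states it treats the clones of each state as separate, since the labels do not pair them. Levels are CPM on 1 TMM scale over all libraries. Levels per kilobase used the exon union of GENCODE M21, which may differ from the annotation the authors counted on. The precision of low genes is limited by their counts.

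The members and the lists (56 further pathway genes and markers of 6 cell types) were chosen with earlier results of these data known. Named genes were the 10 members, the pathway genes called in a mutant comparison of either state (at most 10), and the 5 genes most like Dll4 by Pearson's r. Markers of cell types, the edited genes, overlapping transcripts and pathway genes called in single clones were named outside this rule. So were the pathway genes called between control states, which are marked as named after their values were seen. Alternatives were DESeq2 1.42.0, RLE size factors, other filters, summed libraries, voomLmFit (limma 3.58.1) with the clone as a block, a replicate block, other thresholds, and leaving out each clone or replicate; leaving out the 4 libraries that stood apart, or controls D8 and A4, was added after the data were seen. Counts of called members in mutant comparisons leave out Dll4. Simulated counts with known changes were used to check the scripts. Coordinates and promoters are from RefSeq (GRCm38.p6); the promoter table had no entry for Hes1 or Hey1. Replicate numbers were not used to pair libraries across clones in the main test. Deviations of same-numbered libraries from their clone means had a median correlation of 0.009 in non-ciliated and 0.012 in ciliated clones. The highest were 0.158 and 0.614.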

Additional observations from a re-analysis of the deposited data

Results flagged for a closer look

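The interaction of genotype and state passed the test for Hey1, whose mutant effect was higher in ciliated than in non-ciliated clones by 2.0 on the log2 scale (edgeR adjusted p = 0.0398). The call was lost in 12 of 24 alternatives (adjusted p from 0.00871 to 1.0 over all of them), 5 of which leave out a single clone and 3 a replicate number, and in control G7 the gene had 0 to 4 counts. The fits without replicate 2, 3 or 4 called 7, 18 and 22 of all genes higher and 0 lower, against 141 and 8 in the main fit. In the ciliated state the clone mean of Hey1 was 0.598 to 1.43 CPM in mutants and 0.110 to 0.602 CPM in controls, and in the non-ciliated state 0.746 to 0.837 CPM and 0.634 to 2.81 CPM.

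Clones or libraries lay far from the others of their group in 6 of 150 groups of 4, and chance flags about 1 in 20 such groups. Among control clones, G7 was far below the other 3 ciliated controls in Notch3 (0.961 CPM against 54.7 to 76.2 CPM) and in Nrarp (5.89 CPM against 19.97 to 25.5 CPM). Among the libraries of a clone, Jag1 was at 189 CPM in replicate 2 of control 1 against 194 to 195 CPM, and Hes1 was at 42.0 CPM in replicate 1 of control A4 against 49.0 to 50.6 CPM. Hey1 was at 0.672 CPM in replicate 1 of control 2 against 1.71 to 2.03 CPM and at 1.18 CPM in replicate 1 of control D8 against 0.366 to 0.442 CPM.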

How the results depend on the processing

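Counts of called members depended on the unit of replication. In mutant comparisons they are over the 9 members other than Dll4. Between control states they include Dll4, whose control values entered its choice. The main counts were 0 in ciliated and 1 in non-ciliated mutants, 1 in the interaction, 5 between control states, and 1, 2, 0, 1 and 1 in clones Wdr34-1, Wdr34-3 and Wdr60 of the ciliated and Wdr34 and Wdr60 of the non-ciliated state. With the libraries of each clone summed, or with voomLmFit and the clone as a block, 0 members were called in each of these, except 1 and 2 between control states. Over all genes, summed libraries called 0 in each comparison but that one, so that their counts of 0 members say nothing about the members. VoomLmFit called 5 genes higher and 2 lower in ciliated and 9 lower in non-ciliated mutants, 0 in the interaction, and 241 higher and 10 lower in Wdr34-3, where the calls of Nrarp and Hey1 were lost. In each of the other 4 single clones it called at most 14 higher and 5 lower. At an adjusted p under 0.01, 0 were called in all but the comparison of control states, where 8 passed an adjusted p under 0.05 alone. The limit of 10 counts in every library, which removes low genes, left 0 in the interaction, 2 between states and 1 in Wdr34-3. The limit of 1 count in any library left 0 in the interaction. DESeq2 called 1 in ciliated mutants (Hey1) and 2 in non-ciliated Wdr34 (Dll1 and Jag2), as did leaving out the 4 libraries that stood apart in the latter. The replicate block gave 0 calls in non-ciliated mutants, in the interaction and in Wdr34-1. Correlations were over 0.1 in 7 of 60 non-ciliated and 18 of 84 ciliated same-numbered pairs, with highest values of 0.158 and 0.614. Leaving out a clone or replicate gave 0 to 1 members in ciliated mutants, 0 to 2 in non-ciliated mutants, 0 to 2 in the interaction, 3 to 6 between states, and 0 to 1, 0 to 4, 0 to 1, 0 to 2 and 0 to 1 in the single clones in the order above.

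Some of the log2 fold changes that were not called changed sign. Leaving out a clone or replicate gave, in ciliated mutants, -0.11 to 0.95 for Dll1, -0.68 to 0.50 for Jag2, -0.29 to 0.12 for Notch2, -1.21 to 0.15 for Notch3 and -0.23 to 0.069 for Hes1, and, in non-ciliated mutants, -2.18 to 0.67 for Jag2, -0.20 to 0.26 for Notch1, -1.44 to 0.23 for Notch3, -0.18 to 0.073 for Hes1 and -0.27 to 0.058 for Nrarp. With voomLmFit, Jag2 was at -0.12 and Notch3 at 0.67 in ciliated mutants and Notch3 at 0.42 in the ciliated Wdr60 clone, and without the 4 libraries that stood apart Nrarp was at 0.024 in non-ciliated mutants. The cause was not tested in any of these. No called value changed sign. Depth limits Dll4, Dll1 and Hey1, with libraries of 0 to 6 counts in some clones.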
